A study of Mus musculus with 25 samples.

Results

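The apelin and tip cell genes are 10 genes of the retinal vasculature, Apln, Aplnr, Adm, Egfl7, Robo4, Unc5b, Dll4, Esm1, Cxcr4 and Pdgfb, among the 18676 or 19102 genes listed for each mouse retina library. They were named as a set by their symbols and were selected on FPKM values of these libraries, with the tunicamycin comparison already known, so their tunicamycin values are given as a description and not as evidence. All 10 were listed in every library. Apelin is a secreted peptide that signals through the G protein-coupled receptor Aplnr, and adrenomedullin, the product of Adm, is a second vasoactive peptide, whose receptor is Calcrl paired with a Ramp protein. In the growing retinal plexus, tip cells lead each sprout and are known for expressing Apln, Esm1, Dll4, Cxcr4, Unc5b and Pdgfb, whereas Aplnr belongs mostly to veins and to the cells behind the tip. Dll4 restrains sprouting by activating Notch in neighbouring cells, and Pdgfb recruits pericytes to the new vessel.

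The retinas came from wild-type C57BL/6J mice, injected into the vitreous of both eyes at postnatal day 30 with 1 µL of a 10 µM compound or of vehicle. The compounds were tunicamycin, which blocks N-glycosylation and served as the positive control for ER stress, Ceapin-A7, an inhibitor of the ER stress sensor ATF6, and AA147, an activator of ATF6. The vehicle libraries carry the treatment label PBS, whereas the protocol gives saline with 0.05 to 0.1% dimethyl sulfoxide, and they fall into vehicle set 1 and vehicle set 2. Each of the 5 groups had 5 libraries of bulk retina RNA, collected after removal of cornea and lens, and the labels do not state that libraries of a group are separate animals. The p-values therefore describe library-to-library spread, part or all of it possibly technical. Compound columns are named with a 24 h collection, but no time is named for vehicle, so a difference in time cannot be told apart from a compound effect in any comparison with vehicle. One gene list covers vehicle set 1 and AA147, another covers tunicamycin, Ceapin-A7 and vehicle set 2, and each compound was compared with the vehicle set of its own list.

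Levels are in FPKM, a fragment count corrected for transcript length and for library size, so they can be compared between genes per length. The depth, estimated roughly from the steps between low values, was 15.2 to 24.1 M fragments per library, at which 1 FPKM over a 2 kb transcript is about 40.1 fragments. Markers of photoreceptors and endothelium were present in every group, with 8 of 8 and at least 14 of 15 at a mean of 1 FPKM or more. Lens RNA varied widely within groups, with the lens crystallin Cryaa at 0.97 to 6234 FPKM in the tunicamycin libraries. Y-linked Ddx3y was listed at 0 in libraries 1 to 4 of vehicle set 2 and in libraries 4 and 5 of both AA147 and Ceapin-A7, and was at 9.84 FPKM or more in every other library, all of vehicle set 1 and tunicamycin included. All 4 comparisons are therefore unbalanced in it. In bulk tissue, fewer endothelial cells and less RNA per endothelial cell cannot be told apart.

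In the 10 vehicle libraries these genes were low. Egfl7, a protein secreted by endothelial cells, had a median of 6.44 FPKM (5.60 to 7.45), and Unc5b, a netrin receptor that also occurs in neurons, had 3.80 (3.02 to 6.63). The medians of Pdgfb and Robo4, the endothelial Roundabout receptor, were 2.18 and 1.44 FPKM. Cxcr4, the receptor of the chemokine Cxcl12, had 0.865, Dll4 0.725, Adm 0.515 and Apln 0.465. Aplnr, at 0.15, and Esm1, a proteoglycan known as endocan, at 0.06, were the lowest. Ranges of neighbours in this order overlapped except that Unc5b lay above Pdgfb, and Pdgfb above Robo4, in all 10 libraries.

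Tunicamycin was compared with vehicle set 2 to see how the positive control moved the set. The peptide genes Apln and Adm, Robo4, Egfl7 and Pdgfb were higher in all 5 tunicamycin libraries than in all 5 vehicle libraries, whereas the receptor Aplnr, Dll4, Esm1, Cxcr4 and Unc5b overlapped with vehicle. The Aplnr libraries overlapped in a single value and had the lower mean with tunicamycin, and Aplnr did not pass in a fit without the filter on low values.

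Apln, the apelin gene, read 2.63, 4.31, 5.97, 5.00 and 4.84 FPKM in tunicamycin libraries 1 to 5. In vehicle set 2 it read 0.65, 0.18, 0.86, 0.54 and 0.46. The lowest tunicamycin library thus stood above the highest vehicle library, and the group means, 4.55 ± 1.23 and 0.538 ± 0.250 FPKM (SD, n = 5), had a ratio of 8.46. On the log2(FPKM + 1) scale, which understates changes of low genes, the difference was 1.84 ± 0.15 (SE). Vehicle set 1, at 0.33 to 0.89 FPKM, was as low as vehicle set 2.

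Aplnr, the apelin receptor, read 0, 0.04, 0.09, 0.03 and 0.02 FPKM in tunicamycin libraries 1 to 5, and 0.09, 0.13, 0.15, 0.18 and 0.34 in vehicle set 2. The groups met at 0.09, and the ratio of means was 0.202. These values rest on few fragments, roughly 0 to 7.5 per tunicamycin library and 6.9 to 26 per vehicle library over a transcript of 3699 bases. Aplnr fell under the filter of 1 FPKM in at least 5 libraries and was not tested with the others. Fitted without the filter, its log2(FPKM + 1) difference was -0.18 ± 0.06 (SE) from vehicle set 2 and -0.19 ± 0.06 from Ceapin-A7, and neither passed (limma adjusted p = 0.137 and 0.0933). The libraries of vehicle set 1, AA147 and Ceapin-A7 held 0.11 to 0.29, 0.16 to 0.26 and 0.08 to 0.31 FPKM. The tunicamycin mean, 0.036 FPKM, was thus the lowest of the 5. Single tunicamycin libraries overlapped with vehicle set 2 and Ceapin-A7, but not with vehicle set 1 or AA147, which have another gene list.

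Adm read 2.45, 2.05, 3.52, 3.25 and 3.06 FPKM with tunicamycin and 0.23, 0.16, 0.48, 0.76 and 0.65 in vehicle set 2. The ratio of means was 6.29, and the difference on the log2(FPKM + 1) scale was 1.41 ± 0.13 (SE). Like Apln, it was highest in tunicamycin library 3, the library with the least Cryaa (0.97 FPKM). Apln was lowest in library 1, which had the most Cryaa (6234 FPKM), but Adm was lowest in library 2 (2.05 FPKM). A relation of Apln or Adm to lens RNA was not tested. Both genes reached 1 FPKM in the tunicamycin libraries and in none of the other 10 libraries of this gene list, so each passed the filter only through the group where it was high.

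Promoters of the pair with the largest ratios are shown because Apln and Adm were high in the same libraries. They are the 250 bases before the annotated start in RefSeq on GRCm38.p6, an earlier build than the GRCm39 that the submitters' processing notes name, written 5′ to 3′ on the gene's strand. Capitals mark the letters CCACG, part of the ER stress element, on either strand.
Apln promoter (chrX:48034854-48035103, minus strand): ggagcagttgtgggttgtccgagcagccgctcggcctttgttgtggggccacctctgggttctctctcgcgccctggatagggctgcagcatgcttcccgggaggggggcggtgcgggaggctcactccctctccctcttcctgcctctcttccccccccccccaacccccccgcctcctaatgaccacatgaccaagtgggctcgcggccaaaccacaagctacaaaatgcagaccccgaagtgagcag
Adm promoter (chr7:110627407-110627656, plus strand): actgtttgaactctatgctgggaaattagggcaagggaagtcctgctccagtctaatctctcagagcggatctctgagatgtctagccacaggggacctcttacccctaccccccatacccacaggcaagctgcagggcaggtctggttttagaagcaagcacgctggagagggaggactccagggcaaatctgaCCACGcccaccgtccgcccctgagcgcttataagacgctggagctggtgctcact
The 1 match, in Adm, begins 55 bases before the start. Over all 32851 promoter windows of this length, 28.3% held CCACG on either strand. The hypoxia response core ACGTG (16.6% of windows), which shares letters with CCACG where CCACGTG occurs, the ATF4 element TGATGNAA (3.45%) and the ETS core CCGGAA (12%) were searched on both strands as well. Of the 8 genes with a window in the table, ACGTG and TGATGNAA matched in 0, CCACG in 3 (Adm, Unc5b and 1 of 3 Egfl7 windows) and CCGGAA in 1, Unc5b. A match is a description of letters and not a binding site.

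Robo4, which is known to stabilise vessels, showed little spread among the tunicamycin libraries, at 3.66, 3.77, 3.57, 4.07 and 4.10 FPKM, a coefficient of variation of 6.26%. Vehicle set 2 read 1.36, 0.92, 1.23, 1.67 and 1.45. The highest vehicle library was far below the lowest tunicamycin library, with a ratio of means of 2.89 and a log2(FPKM + 1) difference of 1.06 ± 0.08 (SE).

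Egfl7 was the most abundant of the set with tunicamycin too, at 10.02, 11.12, 11.35, 13.94 and 14.39 FPKM. In vehicle set 2 it stood at 7.24, 6.08, 5.64, 7.45 and 7.23. The groups did not overlap, with a ratio of means of 1.81 and a log2(FPKM + 1) difference of 0.76 ± 0.09 (SE). Egfl7 peaked in libraries 4 and 5, not in library 3 where Apln and Adm did.

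Pdgfb, the ligand of the pericyte receptor Pdgfrb, read 3.65, 4.36, 4.08, 3.87 and 4.55 FPKM with tunicamycin and 2.75, 2.24, 1.82, 2.91 and 2.27 in vehicle set 2. Its groups did not overlap either, with a ratio of means of 1.71 and a log2(FPKM + 1) difference of 0.59 ± 0.10 (SE).

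The remaining genes gave overlapping groups. Dll4, the Notch ligand of tip cells, read 0.55 to 0.84 FPKM with tunicamycin and 0.46 to 0.96 in vehicle set 2. Cxcr4 read 0.67 to 1.15 against 0.39 to 0.97, and Esm1 0 to 0.15 against 0 to 0.21. These 3 genes did not pass the filter and were not tested. Unc5b read 3.27 to 4.40 FPKM against 3.02 to 6.63, a log2(FPKM + 1) difference of -0.16 with a 95% confidence interval of -0.45 to 0.14. Its highest vehicle values, 4.98 and 6.63, were in libraries 4 and 5 of vehicle set 2, and without both the difference was 0.09. Of the tip cell genes named at the start, Apln and Pdgfb were thus among the genes that were higher, and Esm1, Dll4, Cxcr4 and Unc5b were not. Esm1 rests on roughly 0 to 5.8 fragments per tunicamycin library, so nothing is read from its overlap.

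**Figure D1:**
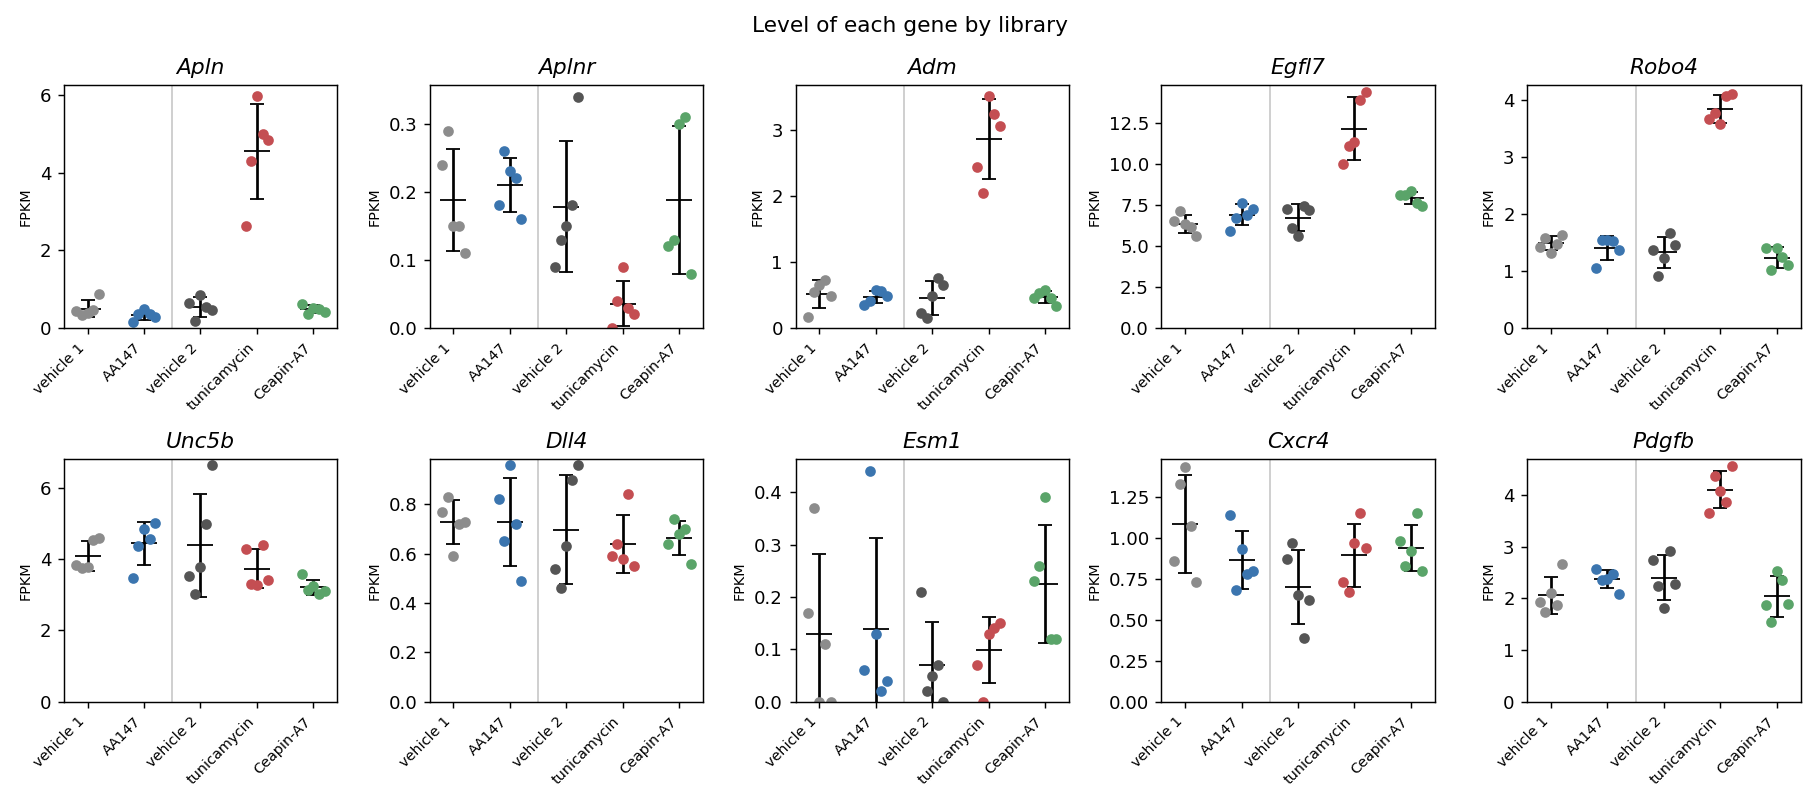
FPKM of each gene (y axis, from 0, own scale per panel) in the 5 groups (x axis), with 1 point per library in library order and the mean ± SD in black; the grey line divides the 2 gene lists. Tunicamycin libraries stand above all others for Apln (2.63 to 5.97), Adm, Egfl7, Robo4 and Pdgfb, and for Aplnr they span 0 to 0.09, overlapping with the lowest vehicle set 2 and Ceapin-A7 libraries.

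Of the 10 genes, 6 passed the filter in these tables, and 5 of them were called as higher and 0 as lower by limma with an adjusted p under 0.05. Over all 12947 genes tested, 2.12% were called as higher and 0.888% as lower, and 2.81% had tunicamycin libraries that all lay above vehicle set 2. The set was chosen with this comparison known, so nothing is read from its count. The median log2(FPKM + 1) difference was 0.91 over the 6 and 0.01 over all genes tested. The split of all calls depended on scaling, with 274 higher and 115 lower as deposited, 182 and 171 after quantile normalization, and 186 and 171 after median-ratio scaling, and the 5 calls held under both.

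Ddx3y differed largely along with these groups, so its part in the differences cannot be fully told apart from that of tunicamycin. Only a fit with its level as a covariate was made. Library 5 of vehicle set 2 was the 1 library of that set with Ddx3y (16.3 FPKM). It read 0.46 for Apln, 0.65 for Adm, 1.45 for Robo4, 7.23 for Egfl7 and 2.27 for Pdgfb. Nothing is read from this 1 library. With the Ddx3y level as a covariate, the log2(FPKM + 1) difference of Pdgfb was 0.65 against 0.59 without it, and Pdgfb was no longer called (limma adjusted p = 0.0502). The differences of Apln, Adm, Robo4 and Egfl7 were then 1.87, 1.30, 1.00 and 0.68. Ceapin-A7 libraries 1 to 3 had Ddx3y as well, at 16.1 to 17.5 FPKM. They read 0.36 to 0.63 FPKM for Apln, 0.46 to 0.57 for Adm and 1.01 to 1.41 for Robo4. Egfl7 read 8.09 to 8.33 and Pdgfb 1.55 to 2.52 in them. A relation to Ddx3y among the Ceapin-A7 libraries was not tested.

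Ceapin-A7, from the same gene list and given at the same dose, offers a difference of means that leaves out the vehicle libraries and their unknown time. The filter, SEs and calls still draw on vehicle set 2, which was in the same model. Apln, Adm, Robo4, Egfl7 and Pdgfb were higher in all 5 tunicamycin libraries than in all 5 Ceapin-A7 libraries, as were 6.77% of all genes tested. The tunicamycin values are those above, so this is no independent measure. Apln read 0.63, 0.36, 0.52, 0.49 and 0.42 FPKM with Ceapin-A7, a log2(FPKM + 1) difference of 1.87 ± 0.15 (SE). The differences were 1.38 ± 0.13 for Adm, 1.11 ± 0.08 for Robo4, 0.75 ± 0.10 for Pdgfb and 0.55 ± 0.09 for Egfl7. That of Unc5b was 0.16, with a 95% confidence interval of -0.13 to 0.45. In limma 5 of 6 were called as higher, and 3.83% of all genes tested were. The set was selected on these tunicamycin values, and Apln and Adm passed the filter only through them, so nothing is read from either count.

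Ceapin-A7, the ATF6 inhibitor, was also compared with vehicle set 2, and whether ATF6 was inhibited in these retinas was not tested here. None of the 6 genes tested was called, and neither was any of the 12947 genes (0%), while 1101 genes had an unadjusted limma p under 0.05, among them Egfl7 and Unc5b. Egfl7 read 8.09, 8.10, 8.33, 7.65 and 7.42 FPKM with Ceapin-A7, a log2(FPKM + 1) difference of 0.21 ± 0.09 (SE), and only its lowest library overlapped with vehicle set 2. Unc5b read 3.57, 3.13, 3.24, 3.03 and 3.10, a difference of -0.32 ± 0.14, which was -0.07 without libraries 4 and 5 of vehicle set 2. Both had a limma adjusted p of 0.585. The 95% confidence intervals of the log2(FPKM + 1) difference were -0.36 to 0.28 for Apln, -0.24 to 0.30 for Adm, -0.23 to 0.13 for Robo4 and -0.37 to 0.05 for Pdgfb. Esm1, at 0.12 to 0.39 FPKM, and Cxcr4, at 0.80 to 1.15, overlapped with vehicle, as did Dll4, at 0.56 to 0.74.

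AA147, the ATF6 activator, was compared with vehicle set 1, and whether ATF6 was activated in these retinas was not tested here. Only Egfl7, Unc5b, Pdgfb and Robo4 passed the filter in these tables. None of the 4 was called, as was none of the 12701 genes tested (0%), with 476 genes and 0 of the 4 at an unadjusted limma p under 0.05. Egfl7 read 5.94, 6.74, 7.65, 6.89 and 7.28 FPKM with AA147 and 6.55, 7.13, 6.32, 6.19 and 5.60 in vehicle set 1. Its log2(FPKM + 1) difference was 0.10, with a 95% confidence interval of -0.05 to 0.25. The intervals were -0.02 to 0.32 for Pdgfb, -0.09 to 0.28 for Unc5b and -0.21 to 0.10 for Robo4. Apln read 0.16, 0.36, 0.48, 0.35 and 0.28 FPKM with AA147 against 0.43, 0.33, 0.38, 0.47 and 0.89. Those groups overlapped, and Adm (0.35 to 0.57 against 0.17 to 0.73) and Aplnr did as well.

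**Figure D2:**
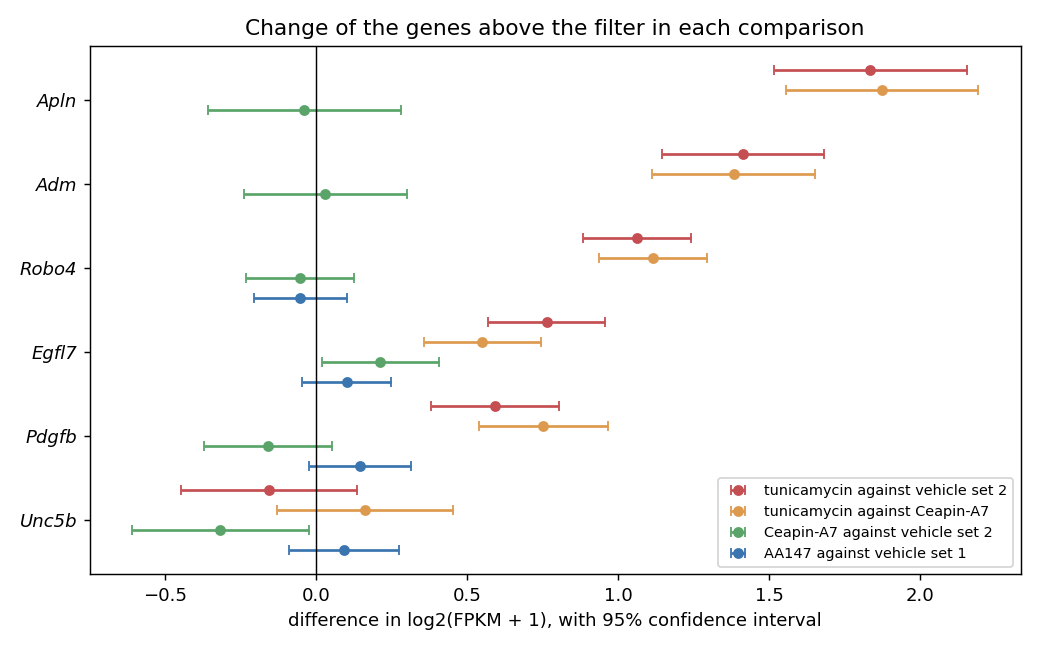
Difference in log2(FPKM + 1) (x axis, points) with its 95% confidence interval (bars) for each gene that passed the filter (y axis), in 4 comparisons by colour. The intervals of both tunicamycin comparisons lie above 0 for Apln, Adm, Robo4, Egfl7 and Pdgfb, and Apln and Adm have no AA147 value because they were under the filter there.

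Receptors, other ligands and targets of the same pathways were looked at beside the set. Their lists were chosen with earlier results of these data known, so their counts and p-values are a description. Of 49 such genes in 6 lists, 43 were tested in the tunicamycin tables, and in tunicamycin against vehicle set 2, 2 rose, 2 fell and 39 did not pass, with a median of -0.04. Over all genes tested in that comparison, 2.12% were called as higher and 0.888% as lower. With Ceapin-A7 and with AA147 against their vehicle sets, 0 of 43 and 0 of 42 passed. Against Ceapin-A7, tunicamycin had 3 of 43 higher and 2 lower, beside 3.83% higher and 1.60% lower over all genes tested. The added gene was Hey2, a Notch target named here after its values were seen (0.39, limma adjusted p = 0.0422).

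Ramp2, a partner that turns Calcrl into an adrenomedullin receptor, fell. It read 3.09, 2.74, 2.99, 5.71 and 3.73 FPKM with tunicamycin and 10.8, 8.36, 8.66, 8.98 and 8.90 in vehicle set 2, with no overlap (log2(FPKM + 1) difference -1.15 ± 0.13, limma adjusted p = 9.41e-05). Calcrl itself differed by 0.20 ± 0.16 and Ramp3 by -0.15 ± 0.08, and neither passed (limma adjusted p = 0.527 and 0.288). Ramp3 was higher in level than Ramp2, with means of 25.7 FPKM with tunicamycin and 28.5 in vehicle set 2. Apela, the second peptide ligand of Aplnr, was near Egfl7 in level in vehicle, at 4.10 to 7.16 FPKM in set 2, and read 3.65 to 6.66 with tunicamycin (limma adjusted p = 0.765). Adm2, which encodes the related peptide intermedin and is named here after its values were seen, was under the filter and read 3.73, 1.12, 0.24, 1.52 and 1.83 FPKM with tunicamycin against 0.08 to 0.46. Unlike Adm, it was highest in library 1 and overlapped with vehicle in library 3.

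Among 12 other tip cell markers 10 were tested, and Angpt2 and Igfbp3 rose while Cd34 fell. Angpt2, the angiopoietin that destabilises vessels, read 3.04, 3.21, 3.62, 3.47 and 3.92 FPKM with tunicamycin and 0.82, 0.88, 1.02, 0.81 and 1.34 in vehicle set 2 (log2(FPKM + 1) difference 1.18 ± 0.08, limma adjusted p = 5.64e-07). Igfbp3, which binds insulin-like growth factors, read 3.76 to 4.29 FPKM against 0.84 to 2.73 (0.97 ± 0.18, limma adjusted p = 0.00934). Cd34, an endothelial sialomucin, read 1.94 to 3.98 FPKM against 4.50 to 6.94 (-0.70 ± 0.15, limma adjusted p = 0.0199). With the Ddx3y level as a covariate the differences were 0.90 for Igfbp3 and -0.59 for Cd34, and neither passed (limma adjusted p = 0.123 and 0.186). Cd34 also did not pass with the 2 compared groups alone, at an unchanged -0.70 (limma adjusted p = 0.0699), or without libraries 4 and 5 of vehicle set 2, at -0.61 (limma adjusted p = 0.0751).

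No gene of the other 4 lists passed in that comparison. They were 11 tested genes of the Notch pathway, with a median of 0.04, 10 guidance receptors and ligands (-0.05), 5 PDGF genes (0.03) and the CXCR4 axis, Cxcl12 and Ackr3. Cxcl12 read 6.98 to 10.4 FPKM with tunicamycin against 10.1 to 24.7 in vehicle set 2, a log2(FPKM + 1) difference of -0.77 ± 0.21 (limma adjusted p = 0.0600).

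Markers of vessel cells moved as well, and their part in the differences above was not tested. The marker lists, too, were chosen with earlier results of these data known. Of 15 endothelial markers 14 were tested, and with tunicamycin 2 rose, 5 fell and 7 did not pass, with a median of -0.20. The share of all genes tested was 2.12% called as higher and 0.888% as lower. Cdh5, the adhesion protein of endothelial junctions, and Eng, a TGF-beta co-receptor, rose by 0.48 ± 0.09 and 0.52 ± 0.10 (limma adjusted p = 0.00934 and 0.0141). With the Ddx3y level as a covariate the differences were 0.47 and 0.39, and neither passed (limma adjusted p = 0.116 and 0.186). Cldn5, a tight junction protein, fell by 1.32 ± 0.13 on the log2 scale and Tek, the receptor of the angiopoietins, by 0.70 ± 0.08 (limma adjusted p = 2.76e-05 and 8.45e-05). The summed level of the list was 106 to 118 FPKM with tunicamycin and 120 to 151 in vehicle set 2, and no marker was at 0 in all libraries of a group. Of 10 pericyte and smooth muscle markers 8 were tested, 5 fell, 0 rose and 3 did not pass, and the sum was 14.2 to 21.0 against 33.0 to 45.1 FPKM. Pdgfb was thus higher in the libraries where 5 of the 8 tested markers of these cells were lower. Its receptor Pdgfrb, also on this list, differed by -0.21 ± 0.09 and did not pass (limma adjusted p = 0.208). Of the other marker lists, 3 of 6 tested pigment epithelium markers fell, and 0 of 10 microglia, 0 of 5 astrocyte, 0 of 8 Muller glia, 0 of 8 ganglion cell, 0 of 8 photoreceptor and 0 of 8 lens markers passed.

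**Figure D3:**
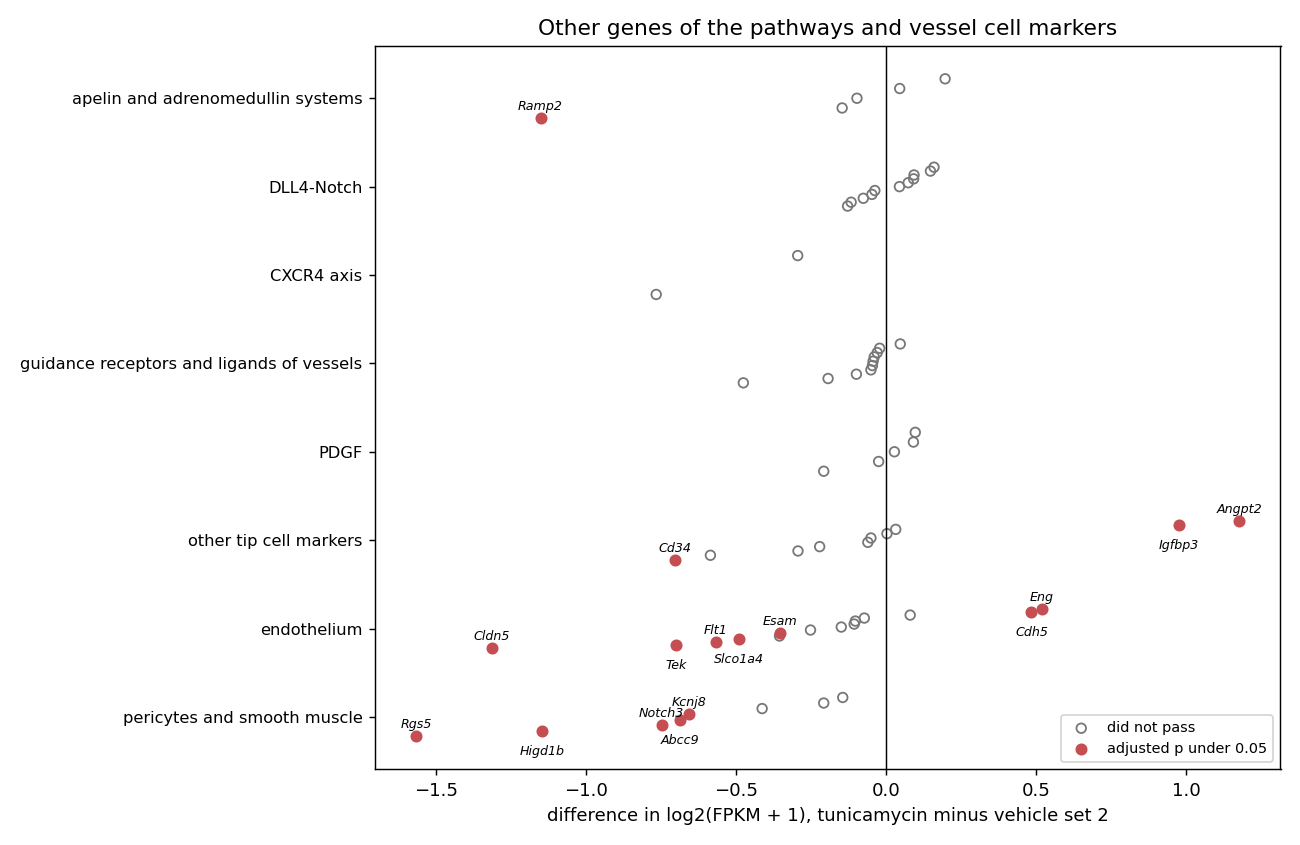
Difference in log2(FPKM + 1), tunicamycin minus vehicle set 2 (x axis), of each tested gene of the pathway lists and of the endothelial and pericyte markers (y axis); filled points passed at an adjusted p under 0.05 and are named. Angpt2 (1.18) and Igfbp3 (0.97) lie to the right and Ramp2 (-1.15) to the left among the pathway genes. Of the vessel cell markers, Rgs5 (-1.57) and Cldn5 (-1.32) lie further left, and the pericyte markers have a median of -0.67.

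The genes whose levels ran most like those of Apln were sought over the 15 libraries of the tunicamycin gene list. Outside the set, the 5 highest Pearson correlations of log2(FPKM + 1) were those of Edn1, the endothelin peptide gene (0.97), Angpt2 (0.96), Adcy4, an adenylyl cyclase (0.95), Lama4, a laminin chain of vessel basement membranes (0.95), and Cdh5 (0.92). Within it, Robo4 and Adm stood at 0.96 each, Egfl7 at 0.89, Pdgfb at 0.88, Cxcr4 at 0.20, Unc5b at -0.0016, Dll4 at -0.09, Esm1 at -0.15 and Aplnr at -0.64. All of these rest on the same libraries and on the step between tunicamycin and the rest. After the group means were subtracted, the values were 0.25 to 0.52 for the 5 outside genes, 0.49 for Adm, 0.38 for Robo4, 0.36 for Egfl7, 0.33 for Esm1, 0.17 for Cxcr4, 0.16 for both Pdgfb and Aplnr, 0.14 for Dll4 and -0.08 for Unc5b. Esm1 then stood near Egfl7, although it was at -0.15 before, but it rests on roughly 0 to 10.9 fragments per library, so nothing is read from this. Adcy4, like Apln and Adm, reached 1 FPKM in the tunicamycin libraries alone and passed the filter only through them. Edn1 itself read 9.19 to 12.9 FPKM with tunicamycin against 1.2 to 1.8 in vehicle set 2.

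**Figure D4:**
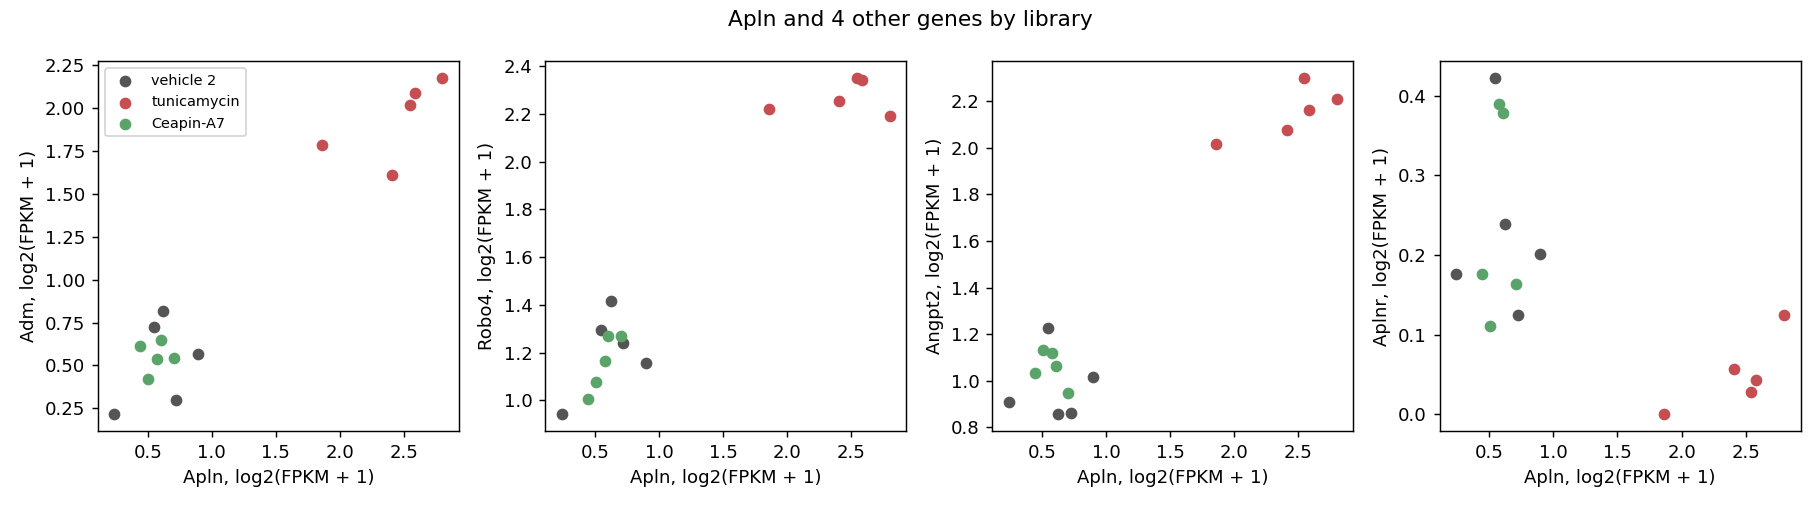
Level of Adm, Robo4, Angpt2 and Aplnr (y axes) against that of Apln (x axes), all as log2(FPKM + 1), with 1 point per library of tunicamycin, Ceapin-A7 and vehicle set 2. The 5 tunicamycin libraries form a separate cluster at high Apln, with high Adm, Robo4 and Angpt2, while Aplnr overlaps between groups, and vehicle and Ceapin-A7 libraries mix.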

How the data were processed

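Bulk retina RNA was measured in 25 libraries, 5 in each of 5 groups, grouped by their titles. Per the labels' protocols, the mRNA libraries were stranded and run on DNBSEQ. The values deposited by the authors are FPKM with 2 decimals, in 1 table per group, per the file headers. Build GRCm39, RSEM 1.2.18, HISAT2 2.0.4 and DESeq2 1.4.5 are listed in the submitters' processing notes, without role or order. Columns were matched to samples by name, and 0 columns were left out.

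Count models were not applied to FPKM. A gene was tested if 5 or more libraries of its gene list reached 1 FPKM, and limma 3.58.1 (R 4.3.3, trend option on) was run on log2(FPKM + 1). One model held vehicle set 2, tunicamycin and Ceapin-A7, and another vehicle set 1 and AA147. Tests were two-sided, with Benjamini-Hochberg adjustment over all genes tested and a threshold of 0.05. SEs pool the spread of the groups in a model, and confidence intervals are at 95%. The fits were tested on simulated data. Depth was estimated from 252 to 284 short single-transcript genes of GENCODE, with 250 bases of each assumed unable to start a fragment. The mean distance of low values to whole fragments was 0.146 to 0.209 there and 0.172 to 0.233 at the best other depth, so whole reads were not recovered. Python 3.11.15, pandas 2.3.3, numpy 2.4.6 and matplotlib 3.10.9 were used.

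The genes and lists were chosen with earlier results of these data known. All 10 genes of the set are named. A gene of the 6 pathway lists is named where it passed with any compound against its vehicle, and the 5 genes most like Apln by Pearson correlation. Other genes are named where stated. Alternatives covered the pseudocount, filter, scaling, groups in the model, replicate numbers, Ddx3y level, control set and libraries left out.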

Additional observations from a re-analysis of the deposited data

Results flagged for a closer look

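Among 90 groups of 5 libraries, 3 held a library whose gap to the nearest other, divided by the range of the group, passed Dixon's critical value of 0.71. Chance flags about 5% of such groups, so 3 is no more than chance would give. Apln in library 5 of vehicle set 1 read 0.89 FPKM, against 0.33 to 0.47 in the other 4. Esm1 in library 2 of AA147 read 0.44 FPKM, against 0.02 to 0.13. Ramp2 in library 1 of vehicle set 2 read 10.8 FPKM, against 8.36 to 8.98.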

How the results depend on the processing

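In the 39 alternatives of the tunicamycin comparisons, 4 or 5 genes of the set were called. Pdgfb lost its call against vehicle set 2 with the Ddx3y covariate, where its difference was 0.65 against 0.59 without it. The other calls among the 5 genes held. The set was selected on these tunicamycin values, and Apln and Adm passed the filter only through them, so nothing is read from these counts. Over the set, 420 of 426 changes either stayed called in the same direction or stayed uncalled and moved by less than the spread between libraries. The size of called changes could move further, as for Apln against vehicle set 2, at 1.74 to 2.93. For all genes, the 389 calls of tunicamycin against vehicle set 2 became 1141 with all 5 groups in one model, 81 with the 2 compared groups only, 63 with the Ddx3y covariate, 7381 with the other vehicle set as the control and 165 (without tunicamycin library 4) to 1022 (without tunicamycin library 3) with 1 library left out. The 703 of tunicamycin against Ceapin-A7 became 1746, 195 with the covariate, 1061 without libraries 4 and 5 of vehicle set 2, and 210 (without Ceapin-A7 library 2) to 1795 (without tunicamycin library 3) with 1 library left out. With the other vehicle set as the control, whose table has another gene list, Ceapin-A7 had 6676 calls, 1 of them in the set (Egfl7, 0.28, limma adjusted p = 0.00815), AA147 had 6016 and 0 in the set, and the change of Ramp2 with AA147 turned from 0.12 to -0.28. AA147 had 0 or 1 calls with 1 library left out. The cause of these shifts was not tested.

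The replicate numbers did not pair the libraries. After each gene's group mean was subtracted, what remained correlated at -0.44 to 0.48 between same-numbered libraries of different groups. Same-numbered libraries were the best match in 4 of 20 cases. With the replicate block there were 187 and 439 calls in the 2 tunicamycin comparisons, with the same 5 genes of the set called in each. Nothing is read from the count of the set here either, for the same reason of selection. Depth limits Aplnr and Esm1, which rest on few fragments.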
